A study of Mus musculus with 31 samples.

Results

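Cd68, Lgals3, Itgax, Cst7, Spp1, Clec7a, Gpnmb, Lpl, Ctsd and Ctss are genes that microglia and other phagocytes use when they take up and digest debris. They were described as a group of 10, and every probe set that the platform annotation assigns to one of these symbols was taken. This gave 11 probe sets for 9 genes, of 45101 probe sets and 18193 genes in all. The annotation used here pairs no probe set with Spp1, so no value is given for it. Ctsd and Ctss were bright on every array, Cd68, Lgals3 and Lpl were of middling brightness, Clec7a and Gpnmb were dim, and Itgax and Cst7 lay close to the bacterial control probe sets. With quantile normalised values 0 of the 7 members that could be tested passed the test over the 10 label groups, against 13.6% of all genes tested. With the values as deposited 3 passed (Cd68, Ctsd and Ctss), and with array medians set equal 2 did (Ctsd and Ctss). The 13.6% holds for the quantile normalised values only. Under the other 2 settings the calls over all genes changed as well in single comparisons, as given in the last section. The share of all genes that passed this test under those settings is not given here. The 3 and 2 members can therefore not be read as a result about the members.

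The study was set up to compare natural and induced regulatory T cells (Treg) of mice, with 1 Affymetrix array for each of 31 samples in 10 label groups, and all samples are labelled as CD4 T cells of spleen and lymph nodes. The groups without a mutant allele came from bicistronic Foxp3/EGFP mice, in which the fluorescent protein EGFP reports on the intact Foxp3 gene. The labels conventional T (3 arrays, EGFP-negative) and natural Treg (4, EGFP-positive) mark cells taken from the animal. Activated T (4) marks conventional cells given antibodies to CD3 and CD28, and activated natural Treg (3) marks natural Treg given both antibodies and TGF-beta. Induced Treg (5) marks EGFP-positive cells after 3 days of conventional cells with both antibodies and TGF-beta, and failed induced Treg (3) the cells of those cultures that stayed negative. Names with Foxp3-delta mark cells that express a mutant allele, Foxp3deltaEGFP: natural Foxp3-delta (2) from heterozygous females, and induced Foxp3-delta (3) from mutant males by the same 3 days of treatment. Induced Treg with IL-2 (2) and induced Foxp3-delta with IL-2 (2) then spent 1 more week with interleukin 2 (100 units per ml). The labels used here give no ages and do not say that the samples of a group came from separate animals or cultures, so the p-values rest on the spread among these samples alone, and that spread could be technical.

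The values go against the labelled cell type. Of 14 measured T cell genes, 13 had a mean percentile under 50, and the list's median percentile averaged 26.6 (24.3 to 30.0 over the 31 arrays). Foxp3 averaged 12.7 ± 2.35 deposited units (SD, n = 31) and Cd4 19.8 ± 3.84. The medians of 8 oligodendrocyte genes, 9 neuron genes and 8 astrocyte genes were at percentiles 99.3, 99.3 and 99.2, with the myelin gene Mbp at 19985 ± 3247. Each group is therefore called by its label, and nothing below shows that the arrays measured T cells. The arrays also differed in overall brightness (deposited median 22.2 to 55.4) and fall into 3 sets by their spiked-in controls and brightness. Set 1 holds 15 arrays, with every array of the labels natural Treg, conventional T and both IL-2 labels. Set 2 holds 6 and set 3 holds 10, and set 3 includes the 3 activated natural Treg arrays and 3 of the 4 activated T arrays. The sets were defined from the data and are not batches named by the labels.

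Microglia are the resident macrophages of the central nervous system. At rest they express sensing receptors such as P2ry12 and Cx3cr1, and around plaques, dying neurons or damaged myelin they lower these and raise a programme of receptors, lysosomal proteases and lipid-handling genes. Several of those genes are also used by other cells: cathepsin D by neurons and nearly all other cells, Lpl and Spp1 by some neurons, and Itgax by dendritic cells. In a mixed tissue fewer cells of a type and less RNA per cell cannot be told apart.

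The stretch of 250 bases upstream of the start site is shown for 4 members, taken from RefSeq: the bright proteases Ctsd and Ctss, the receptor gene Clec7a, which lay near the middle of the array, and Cst7, which lay near the controls. Capitals mark 2 short sequences searched on both strands, CACGTG, the core of the element that the lysosomal regulators TFEB and MITF bind, and GAGGAA, the core of the site of the myeloid factor PU.1.
Ctsd (GRCm38.p6, chr7:142387828-142388077, - strand): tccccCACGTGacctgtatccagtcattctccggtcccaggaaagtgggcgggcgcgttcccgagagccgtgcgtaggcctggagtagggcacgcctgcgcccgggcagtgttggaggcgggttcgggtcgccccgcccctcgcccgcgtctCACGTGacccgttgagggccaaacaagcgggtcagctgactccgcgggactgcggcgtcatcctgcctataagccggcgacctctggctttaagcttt
Ctss (GRCm38.p6, chr3:95526536-95526785, + strand): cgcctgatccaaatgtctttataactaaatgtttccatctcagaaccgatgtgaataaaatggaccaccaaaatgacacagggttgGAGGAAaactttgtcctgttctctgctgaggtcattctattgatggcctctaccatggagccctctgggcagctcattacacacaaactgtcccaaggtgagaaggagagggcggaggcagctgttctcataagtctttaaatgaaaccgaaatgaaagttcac
Clec7a (GRCm38.p6, chr6:129472780-129473029, - strand): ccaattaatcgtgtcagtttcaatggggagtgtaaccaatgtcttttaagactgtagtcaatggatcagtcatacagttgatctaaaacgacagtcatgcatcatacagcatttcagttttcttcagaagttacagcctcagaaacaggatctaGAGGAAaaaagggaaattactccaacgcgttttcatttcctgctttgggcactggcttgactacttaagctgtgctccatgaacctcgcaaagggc
Cst7 (GRCm38.p6, chr2:150570165-150570414, + strand): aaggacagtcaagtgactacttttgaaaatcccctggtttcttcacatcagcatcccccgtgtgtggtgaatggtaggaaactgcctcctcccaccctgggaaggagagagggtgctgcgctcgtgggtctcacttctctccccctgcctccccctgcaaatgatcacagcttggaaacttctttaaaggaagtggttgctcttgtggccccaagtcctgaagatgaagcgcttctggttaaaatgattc
The Ctsd stretch held CACGTG at 2 places, starting 245 and 98 bases before the start site. Ctss held GAGGAA 164 bases before it and Clec7a 96 bases before it, and the Cst7 stretch held neither sequence. Of the 9 members with a listed promoter, 1 (Ctsd) had CACGTG and 4 (Ctss, Spp1, Clec7a and Cd68) had GAGGAA. Counted by promoter, as some members have more than 1, 1 of 11 member promoters held CACGTG and 5 held GAGGAA. Over all 32851 listed promoters 6.02% held CACGTG and 23.3% held GAGGAA in a stretch of this length. A match is a description of the letters and does not show that a factor binds there.

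Levels are given as normalised intensity in linear units, after the arrays had been brought to a common distribution, and as the percentile of a probe set among all probe sets of its array. Background was taken as the 95th percentile of 27 bacterial control probe sets for which no spike is listed, which was 9.17 to 18.7 deposited units depending on the array. The level of one probe set says nothing about another gene's amount of RNA, because probe sets bind with different strength.

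Ctsd, the main aspartic protease of lysosomes, had a mean normalised intensity of 2115 ± 166 (SD, n = 31) and lay between percentiles 96.5 and 97.6 on every array. Ctss, a cysteine protease that works in lysosomes and in antigen presentation and that microglia make in quantity, averaged 2230 ± 186 and lay between percentiles 95.7 and 97.5. Both had a small spread over the 31 arrays, with a coefficient of variation of 7.86% for Ctsd and 8.33% for Ctss. Cd68, a glycoprotein of the lysosomal membrane used as a stain for phagocytes, averaged 96.9 ± 13.3 and lay between percentiles 58.3 and 68.2. All 3 were above background on 31 of 31 arrays.

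Clec7a, the receptor Dectin-1 for fungal beta-glucans, averaged 39.2 ± 6.93 and lay around the middle of the array, between percentiles 44.1 and 55.4. Its deposited value exceeded background on 31 arrays and the highest single control on 28. Itgax, the integrin chain CD11c, averaged 15.2 ± 2.53 between percentiles 17.3 and 36.8, and was above background on 24 arrays and above the highest control on 0. Cst7, the cystatin F gene, an inhibitor of lysosomal cysteine proteases, averaged 15.6 ± 2.00, was above background on 28 arrays and above the highest control on 0. Neither Itgax nor Cst7 reached the table's median on any array, so the filter on low values left both untested in the model.

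Lgals3, galectin-3, a sugar-binding protein of phagocytes, averaged 160 ± 18.6 between percentiles 66.6 and 73.5. Lpl, lipoprotein lipase, averaged 143 ± 23.5 on its brighter probe set. Gpnmb, a membrane glycoprotein of lysosomes in lipid-laden macrophages, was read by 2 probe sets. The brighter averaged 31.6 ± 6.53 and was above background on 30 arrays, while the dimmer averaged 8.68 ± 0.578 and was above background on 0. Gpnmb passed the filter through 3 arrays (induced Foxp3-delta arrays 1 and 2 and failed induced Treg array 3, in the groups where its mean is highest) and Clec7a through 12, against 31 for each of the other 5 tested members.

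**Figure D1:**
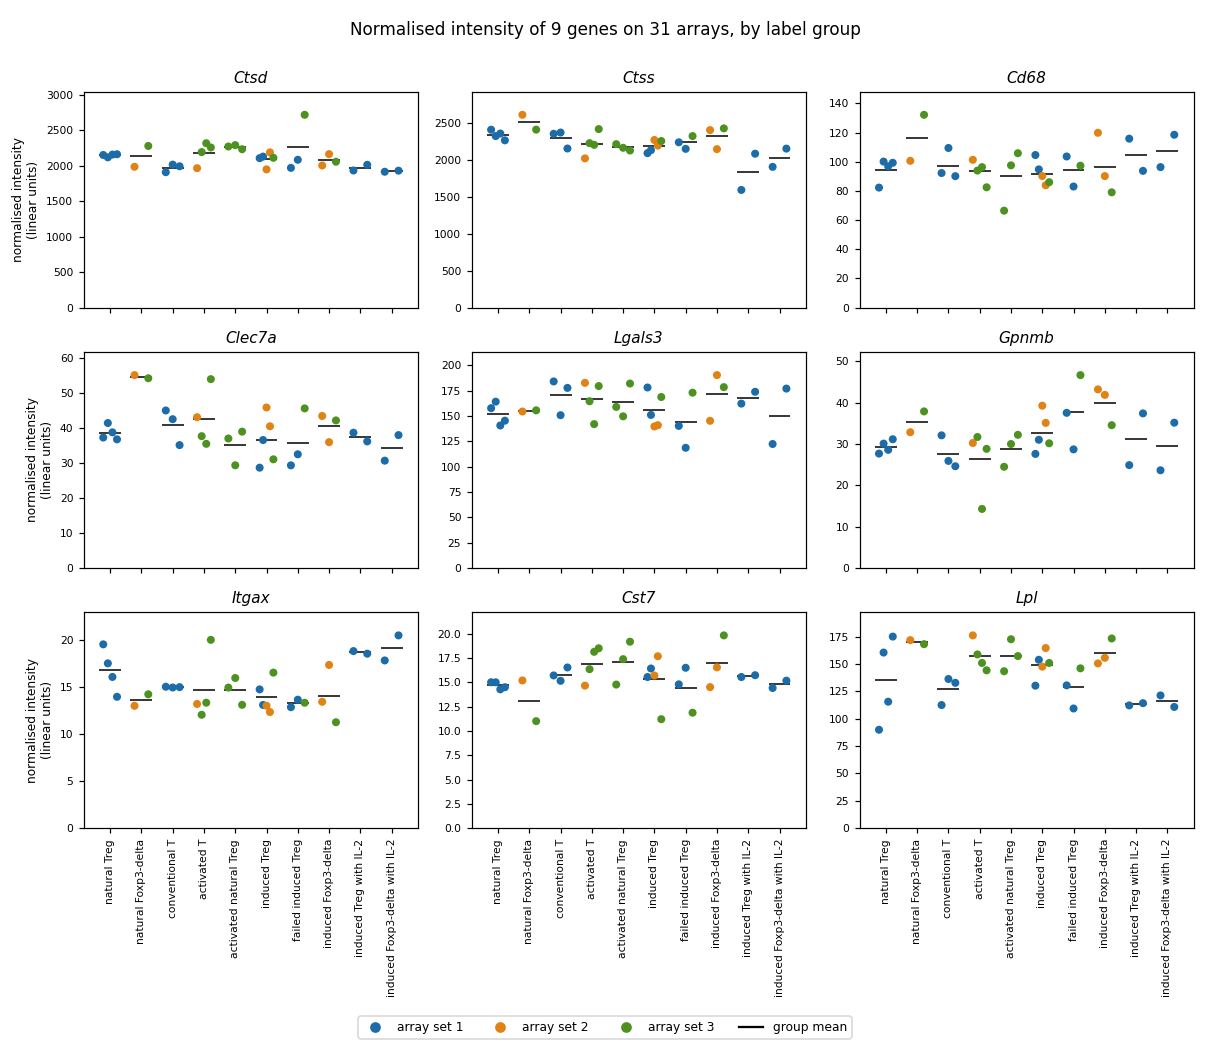
Normalised intensity (linear units, each axis from 0) of the 9 measured genes on 31 arrays, by label group, each gene by its brightest probe set; points are arrays coloured by array set and bars are group means. By group mean Ctss is lowest in the IL-2 labels, and Clec7a is highest on the natural Foxp3-delta arrays (55.1 and 54.2).

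Beside the members, 5 fixed lists describe the phagocyte background of these arrays. Of 16 measured homeostatic microglia genes, 15 were above background on all 31 arrays and 4 had a mean percentile under 50, and the median of the list was at percentile 66.1. They ran from Cd33, at 29.9, to Sparc, at 99.9, which other cells also express, with Csf1r, the receptor that microglia need to survive, at mean percentile 96.5, the purinergic receptor P2ry12 at 82.8, the fractalkine receptor Cx3cr1 at 71.6 and Tmem119 at 71.5. Of 27 measured further genes of the disease-associated programme, 23 were above background on every array. The adaptor gene Tyrobp lay at percentile 82.7, its partner receptor Trem2 at 56.8 and Apoe, which astrocytes also make, at 99.5. In the same list the chemokine gene Ccl3 lay at 13.5, the proton pump subunit Atp6v0d2 at 15.8 and the cholesterol hydroxylase Ch25h at 18.1. All 31 measured lysosome and phagosome genes were above background on every array, 18 of them above percentile 90. Genes of border macrophages and monocytes had a median at percentile 49.4 over 13 genes, with the scavenger receptor Cd163 at 40.9, the chemokine receptor Ccr2 at 41.8, the coagulation factor gene F13a1 at 62.5 and the fibronectin gene Fn1, the highest, at 86.8. The 6 measured neutrophil genes had a median at percentile 71.4, from Mpo at 30.9 to S100a9 at 87.7. For the 9 measured members the median percentile of an array ran from 58.3 to 68.2.

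**Figure D2:**
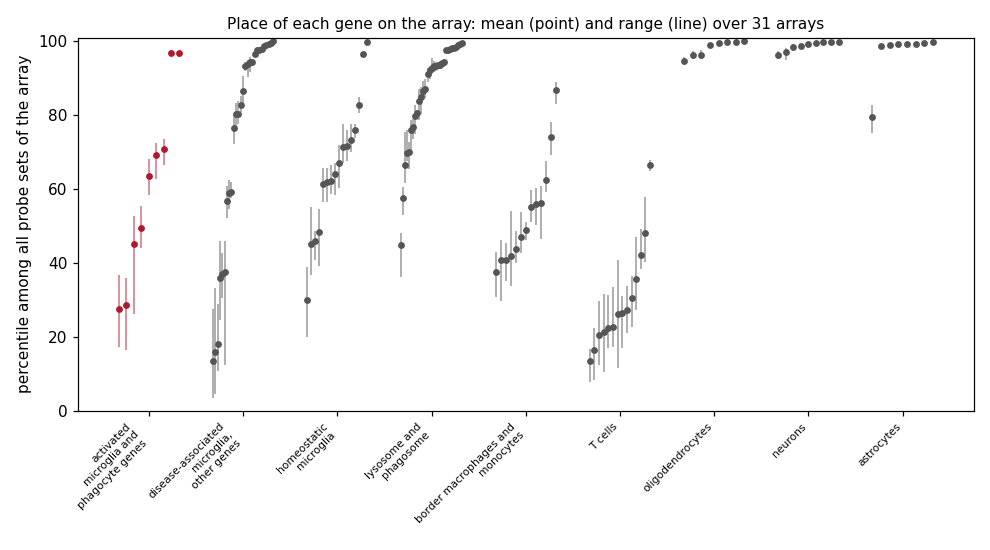
Percentile of each gene among all probe sets of its array for 9 gene lists, with the mean (point) and the range (line) over 31 arrays; the 9 measured activated microglia and phagocyte genes are in red. They spread from Itgax at 27.5 to Ctss at 97.0, while oligodendrocyte, neuron and most astrocyte genes lie close to 100.

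Differences between label groups were tested with limma over all 31 arrays on log2(normalised intensity + 16). The scale understates the change of dim genes. Over the 10 groups together, 0 of 7 tested members passed at an adjusted p under 0.05, against 13.6% of all 12169 genes tested. Ctss came closest (limma moderated F test, adjusted p = 0.0509), followed by Lpl (0.0888), Clec7a (0.189), Gpnmb (0.264) and Ctsd (0.354), with Cd68 (0.694) and Lgals3 (0.729) last. The ratio of the highest to the lowest of the 10 group means was 1.18 for Ctsd, 1.19 for Lgals3, 1.29 for Cd68, 1.37 for Ctss, 1.5 for Lpl, 1.52 for Gpnmb, which entered the fit through its highest groups, and 1.59 for Clec7a.

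Of the single comparisons, the closest to a call was Ctss in the arrays labelled as kept in interleukin 2. It read 1596 and 2088 normalised units on the 2 induced Treg with IL-2 arrays, and 2096, 2137, 2274, 2198 and 2260 on the 5 induced Treg arrays. Both IL-2 arrays lay below the 5 others, and array 2 lay just under the lowest of them, and 24.4% of all genes had groups that did not overlap here. The log2 difference was -0.26 (SE 0.08, 95% interval -0.43 to -0.09, limma adjusted p = 0.0913), while 2.15% of all genes were called in this comparison. In the mutant-allele pair Ctss read 1910 and 2157 with IL-2, and 2408, 2150.0 and 2432 on the induced Foxp3-delta arrays, so these groups overlapped. Its difference there was -0.20 (SE 0.09, adjusted p = 0.278), with 0.304% of all genes called. Without induced Treg with IL-2 array 2, Ctss in the first comparison passed at -0.45 (adjusted p = 0.0316), a value that rests on 1 array of that label, with its spread taken from the other groups. With array medians set equal it passed at -0.70 (adjusted p = 0.0366), and blocking on array set, since the IL-2 arrays are all in set 1, gave -0.22 (adjusted p = 0.219).

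Lpl frees fatty acids from circulating lipoproteins and is among the lipid genes of activated microglia. Its brighter probe set read 112 and 114 on the induced Treg with IL-2 arrays, and 130, 154, 148, 165 and 151 on the induced Treg arrays, with no overlap. The log2 difference was -0.35 (SE 0.15, adjusted p = 0.212). It read 121 and 111 on the induced Foxp3-delta with IL-2 arrays, and 151, 156 and 173 on the induced Foxp3-delta arrays, again with no overlap, for a difference of -0.41 (SE 0.16, adjusted p = 0.191). Groups that do not overlap are common at these sizes: 24.4% of all genes in the first comparison and 39.3% in the second. Both IL-2 labels lie in array set 1, where this probe set had a median of 121 with their arrays included, against 160 in set 2 and 154 in set 3. Induced Treg arrays 1 and 2, also in set 1, read 130 and 154. No induced Foxp3-delta array is in set 1. Blocking on array set gave differences of -0.25 (adjusted p = 0.506) and -0.24 (0.819). Beyond this fit the part of the array set in the difference was not tested.

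The dimmer Lpl probe set had differences of the opposite sign. It read 44.3 and 36.9 on the induced Treg with IL-2 arrays, 31.3, 33.0, 25.0, 21.8 and 42.9 on the induced Treg arrays, 52.9 and 38.4 on the induced Foxp3-delta with IL-2 arrays, and 26.5, 21.2 and 37.2 on the induced Foxp3-delta arrays. Fitted on its own among 21548 probe sets, its differences were 0.29 (SE 0.17, adjusted p = 0.407) and 0.48 (SE 0.18, adjusted p = 0.176). The signs of the 2 probe sets were opposite in 9 of the 10 comparisons. Over the 31 arrays they had a Pearson correlation of -0.48 and a Spearman correlation of -0.47, given as a description. After the mean of each array set had been subtracted the Pearson correlation was -0.05. The median of the dimmer probe set was 41.2 in array set 1, 25.7 in set 2 and 32.5 in set 3, the reverse of the order of the brighter one. No direction is therefore given for Lpl as a gene.

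**Figure D3:**
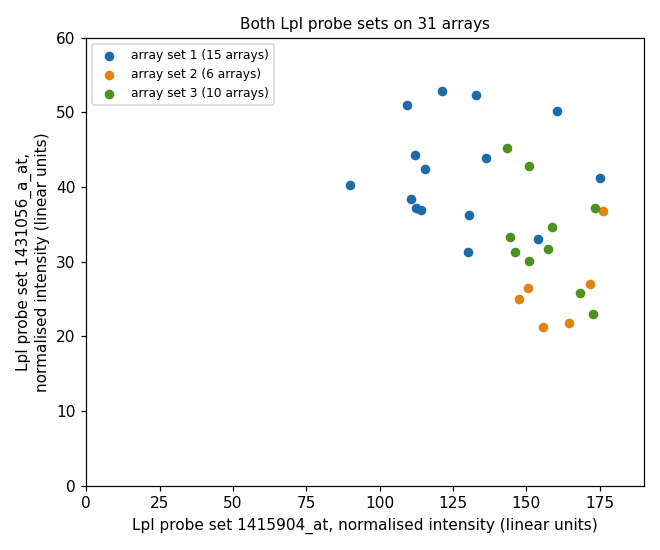
Normalised intensity (linear units) of both Lpl probe sets on 31 arrays, 1 point per array, coloured by array set. Arrays of set 1 lie to the left and high (medians 121 and 41.2) and those of set 2 to the right and low (160 and 25.7).

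The label comparison that asks what an intact Foxp3 allele adds in cells from the animal set natural Treg against natural Foxp3-delta. Clec7a read 55.1 and 54.2 on the natural Foxp3-delta arrays, the highest values of the 31 arrays, and 37.2, 41.4, 38.7 and 36.7 on the natural Treg arrays. The log2 difference was -0.37 (SE 0.13, 95% interval -0.64 to -0.11, adjusted p = 0.163). Cd68 had a difference of -0.25 (adjusted p = 0.399), Gpnmb -0.18 (0.596) and Ctss -0.10 (0.588). Lpl was -0.34 (0.275) on its brighter probe set and 0.49 (0.171) on its dimmer one. The groups of 4 members did not overlap (Clec7a, Cd68, Gpnmb and Ctss), which 30.6% of all genes shared, and 0 members were called, against 0.0493% of all genes. No array set holds both labels. A fit with array set as a block, whose estimate comes through the remaining groups, gave a Clec7a difference of -0.12 (adjusted p = 0.972). In that fit Cd68 was -0.34, Gpnmb turned to 0.06, Ctsd was 0.14, Lgals3 was 0.02 and Ctss was -0.02. Lpl was -0.17 on its brighter probe set and 0.30 on its dimmer one.

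By their labels, activated T and conventional T differ in stimulation through the T cell receptor. In this comparison of labels 6.75% of all genes and 0 of 7 members were called. The brighter Lpl probe set read 176, 159, 151 and 144 on the activated T arrays, and 113, 136 and 133 on the conventional T arrays, a difference of 0.28 (SE 0.13, adjusted p = 0.200) with no overlap, as in 22.7% of all genes, that its other probe set opposed (-0.28, adjusted p = 0.271). Ctsd had the next smallest p, at a difference of 0.14 (SE 0.08, adjusted p = 0.270). Activated natural Treg against natural Treg called 16.7% of all genes and 0 members. There Ctsd read 2271, 2290.2 and 2233 against 2151, 2118, 2157 and 2162, with a difference of 0.08 (adjusted p = 0.536). Ctss read 2218, 2168 and 2131 against 2414, 2327, 2362 and 2269, with a difference of -0.11 (adjusted p = 0.337). In both genes the groups did not overlap, as in 30.0% of all genes, and with array medians set equal the Ctsd difference was 0.58 (adjusted p = 0.0340). Neither pair of labels has arrays in a common set.

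With quantile normalised values, used for all values of this paragraph, the remaining 5 comparisons gave no member near a call. The calls of Cd68 and Gpnmb in induced Treg against activated T with the values as deposited are given in the last section. Natural Treg against conventional T called 0.00822% of all genes, and the largest member difference was -0.15 for Lgals3 (SE 0.12, adjusted p = 1.00). Among the 7 tested members 1, Ctsd, had groups that did not overlap, as did 6.72% of all genes tested. The groups of Cst7, which is not among the genes tested, did not overlap either. Activated natural Treg against activated T called 0.723%, with Clec7a at -0.19 (adjusted p = 0.476). Induced Treg against activated T called 0.0493%, with Gpnmb at 0.22 (SE 0.12, adjusted p = 0.497). No member had groups without overlap in these 2 comparisons, against 7.67% and 1.92% of all genes. Induced Treg against failed induced Treg and against induced Foxp3-delta called 0 of all genes, and the largest member differences were 0.20 for Lpl and -0.20 for Gpnmb (adjusted p = 0.998 and 1.00). The dimmer Lpl probe set was -0.25 in the first of these, of the opposite sign. Gpnmb passed the filter through arrays that include induced Foxp3-delta arrays 1 and 2, so its difference against that label is not independent of the filter. The next largest there was -0.12 for Lgals3. In both of these comparisons each member's groups overlapped, while those of 2.53% and 1.94% of all genes did not. Counted at an unadjusted p under 0.05, limma had 2 of 7 members in natural Treg against natural Foxp3-delta, 1 in activated T against conventional T, 2 in each IL-2 comparison and 0 in the other 6. The shares of all genes at that p were 16.1%, 24.4%, 17.1% and 16.5% in the first 4 of these. In the other 6 they were 32.3% (activated natural Treg against natural Treg), 14.1% (against activated T), 11% (induced Treg against activated T), 4.21% (against failed induced Treg), 2.81% (against induced Foxp3-delta) and 2.65% (natural Treg against conventional T). Over the 10 comparisons the 95% intervals of the 7 members ran from -0.74 to 0.55 at their farthest, so these tests do not show that the members were equal between labels. Several comparisons share label groups and are not independent.

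**Figure D4:**
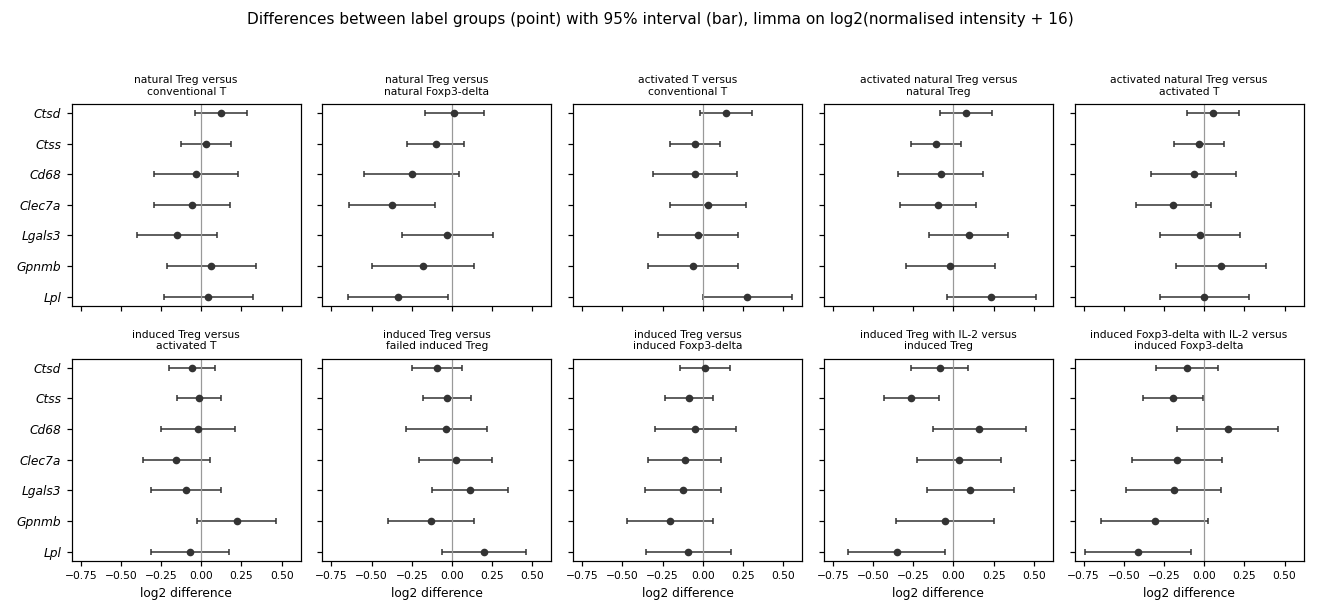
Log2 difference between the label groups named above each panel (first minus second), with its 95% interval from limma, for the 7 tested members in 10 comparisons. The difference farthest from 0 is that of Lpl in the last panel (-0.41), and with this normalisation no tested member is called in any of the 10 panels.

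Itgax and Cst7 were fitted only without the filter. Itgax read 18.9 and 18.6 on the induced Treg with IL-2 arrays and 14.8, 13.1, 13.05, 12.4 and 16.6 on the induced Treg arrays, a difference of 0.21 (SE 0.08, adjusted p = 0.199), with no overlap. In the mutant-allele pair its groups did not overlap either, with a difference of 0.23 (SE 0.09, adjusted p = 0.224). Of the 12169 genes that passed the filter, 24.4% and 39.3% did not overlap in these 2 comparisons. These shares leave out genes as dim as Itgax. All 4 IL-2 arrays are in array set 1, where Itgax had a median of 15.1 with these 4 included, against 13.1 in set 2 and 13.8 in set 3. The part of the array set was not tested. The values lie below the highest bacterial control of each array, so they are close to what probes without a target read.

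Genes of the lysosome and phagosome, disease-associated and homeostatic lists were called in 3 of the 10 comparisons. Activated natural Treg against natural Treg, with 16.7% of all genes called, had 4 higher and 2 lower of 30 tested lysosome and phagosome genes. The hexosaminidase subunit gene Hexa was higher by 0.37 (SE 0.10) and the acid lipase gene Lipa by 0.37 (SE 0.10), while the proton pump subunit gene Atp6v1h fell by 0.47 (SE 0.10) and the cysteine protease gene Ctsl fell by 0.35 (SE 0.10). Of 21 further disease-associated genes, 1 was higher (Cd52, by 0.24) and 2 were lower (Ctsl and Ank). Of 14 homeostatic genes 2 were higher, the fructose transporter gene Slc2a5 by 0.64 and the transcription factor gene Sall1 by 0.35. Blocking on array set left 0 of these genes called. These 2 labels share no array set, so the blocked estimate comes through other groups. Over all 21548 tested probe sets the block moved the calls from 3407 to 42, so the lost calls are not particular to these genes. With array medians set equal Ctsl, Ank and Atp6v1h had differences of 0.22, 0.27 and 0.09, the other way. Beside these the neuronal gene Cplx1 fell by 0.40 and the astrocyte gene Glul fell by 0.51, and the T cell gene Cd3e was higher by 0.59 and the endothelial gene Cdh5 by 0.39. They were 1 of 9 tested neuron, 1 of 8 astrocyte, 1 of 2 T cell and 1 of 6 endothelial genes. The median differences of those lists were -0.14, 0.01, 0.24 and 0.07. With array medians set equal Cplx1 and Glul were 0.64 and 0.31 the other way, and blocking on array set ended all 4 calls (-0.08, -0.21, -0.02 and 0.03). The part of these cell types in the list values was not tested.

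In induced Treg with IL-2 against induced Treg the lysosomal lipid genes Lipa and Npc1, which moves cholesterol out of lysosomes, fell by 0.59 (SE 0.11, limma adjusted p = 0.00970) and fell by 0.53 (SE 0.10, adjusted p = 0.0115), the only 2 of 30 list genes called there, with 2.15% of all genes called. Cd83, a surface protein of activated myeloid and lymphoid cells, fell by 0.53 (SE 0.10, adjusted p = 0.0111), 1 of 21 further disease-associated genes, and Cx3cr1 fell by 0.41 (SE 0.11, adjusted p = 0.0413), 1 of 14 homeostatic genes. Blocked on array set, Lipa (-0.56, adjusted p = 0.0195), Npc1 (-0.40, 0.0495) and Cd83 (-0.43, 0.0451) kept the call, and Cx3cr1 (-0.43, 0.0719) did not. Over all 21548 tested probe sets the block moved the calls of this comparison from 423 to 298, so the kept calls are not particular to these genes. In activated T against conventional T, with 6.75% of all genes called, 2 lysosome and phagosome genes were higher and 1 was lower. Scarb2, a lysosomal membrane receptor, was higher by 0.41 (1.14 with array medians set equal) and Lipa by 0.43, and Atp6v0d1 fell by 0.39 (0.32 higher with array medians set equal). The homeostatic gene Slc2a5 was higher by 0.43. Blocked on array set, 0 of these 4 kept the call. These 2 labels share no array set either, and over all 21548 tested probe sets the block moved the calls from 1386 to 24. Genes of other cell types were called in the same comparison: the neuronal gene Rbfox3 fell by 0.70 (0.05 higher with array medians set equal), the endothelial gene Pecam1 fell by 0.61, and Cd3e was higher by 0.81 and the dendritic cell gene Fscn1 by 0.37. These were 1 of 9 tested neuron, 1 of 6 endothelial, 1 of 2 T cell and 1 of 6 dendritic cell genes. The median differences of those lists were 0.004, 0.20, 0.39 and 0.06. Blocking ended these calls too, and the part of these cell types was not tested.

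The members did not follow each other closely over the arrays. Among the 21 pairs of tested members the Pearson correlation of log2 values over 31 arrays ran from -0.18 to 0.48, with a median of 0.19, as a description of arrays that share brightness and label group. The highest was between Clec7a and Ctss (Spearman 0.60; Pearson 0.38 after the mean of each label group had been subtracted and 0.43 after that of each array set). For each of the 6 genes whose brightest probe set exceeded background on all 31 arrays, the 3 genes of most similar pattern among the 12169 were listed. For Ctsd they were Cnppd1, Dhx32 and Cbfa2t2 (Pearson 0.81, 0.80 and 0.79), for Ctss the proton pump subunit gene Atp6v0b, Spred1 and Stk10 (0.75, 0.68 and 0.62), and for Lpl Oxnad1, Srsf12 and Rassf4 (0.77, 0.76 and 0.73). For Cd68 they were Ncs1, Arf4 and Uba6 (0.69, 0.63 and 0.61), for Clec7a Dmxl1, Vcpip1 and Rph3al (0.68, 0.65 and 0.64), and for Lgals3 Jarid2, Clstn2 and Dusp26 (0.58, 0.55 and 0.55). After the mean of each label group had been subtracted these 18 correlations ran from 0.37 (Clec7a with Rph3al) to 0.80 (Ctsd with Cnppd1). The listed genes were picked for the highest correlation among 12169, so the values are high in part by that choice, and they were not tested.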

How the data were processed

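The deposited table holds, per the file itself, 1 intensity per probe set and array on a linear scale. The way the authors summarised, background-corrected and scaled these intensities was not stated in the labels or the file. Of 45101 probe sets the platform annotation gives 34958 a single gene symbol and 932 several, which were not named. Arrays were quantile normalised and set to log2(intensity + 16), and each gene was represented by its probe set with the highest mean. The 12169 genes above the table's median (39.8) on at least 2 arrays were fitted with limma 3.58.1 in R 4.3.3, with 1 mean per label group over all 31 arrays. Adjusted p-values are Benjamini-Hochberg values over these genes, and a call is an adjusted p under 0.05. The fitting code was tested on simulated data. Array sets come from Ward clustering of the cre to bioB control ratio, the median and the 99th percentile. The members, lists and comparisons were chosen with earlier results of these data known, and the fit of each probe set on its own was added after values had been seen. Genes named are the members, up to 4 called genes of a described list by smallest adjusted p in a comparison, the 3 genes most similar in pattern to a member, and markers on which the check of the cell type turns. The named genes Ccl3, Atp6v0d2, Ch25h, Trem2, Tyrobp, Apoe, Csf1r, P2ry12, Tmem119, Cd33, Sparc, Cd163, Ccr2, F13a1, Fn1, Mpo and S100a9, and Cx3cr1 where its level is given, were picked after their levels had been seen. The number of arrays limits the precision. Numbers in the sample titles were not used to pair the arrays in the main fit. Deviations of same-numbered arrays of different groups had a median correlation of 0.00247 over 114 pairs (-0.29 to 0.40). For differently numbered arrays it was -0.00148 over 314 pairs. A median over all groups cannot show whether the arrays of some groups were paired.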

Additional observations from a re-analysis of the deposited data

Results flagged for a closer look

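3 values lay far from the other arrays of their label group (33 group and probe set combinations were looked at, and chance alone marks about 1 in 20). The brighter Gpnmb probe set read 14.3 normalised units on activated T array 3, against 28.8 to 31.7 on the other 3 arrays. Itgax read 20.1 on activated T array 4, against 12.1 to 13.4 on the others. The dimmer Gpnmb probe set, which was below background on every array, read 8.66 on natural Treg array 1, against 8.28 to 8.29 on the others. The tests of a difference between effects (activation in activated T against that in activated natural Treg, and interleukin 2 with an intact against a mutant allele) called 0 of 7 members and 0 of all genes by limma, with 0 members at an unadjusted p under 0.05 in both.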

How the results depend on the processing

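The count of called members stayed at 0 in most of the alternatives tried: of 520 counts under an alternative 19 moved, 8 of them on leaving out 1 array. For the test over all 10 label groups 3 members were called with the values as deposited (Cd68, Ctsd and Ctss), 2 with array medians set equal (Ctsd and Ctss), and 1 (Ctss) with a pseudocount of 64, with no filter on low values and with the mean of a gene's probe sets. The 13.6% of all genes called in this test holds for the main setting only. The share of all genes in this test under the alternatives is not given here, so these member counts are not set against it. Leaving out 1 array gave 0 to 1 there, Lpl without natural Treg array 1 or 4 and Ctss without failed induced Treg array 3, induced Foxp3-delta array 2, activated T array 1 or 4, or induced Treg with IL-2 array 2, and 0 to 1 for induced Treg with IL-2 against induced Treg. With the values as deposited, 3 members were called in activated natural Treg against natural Treg (Cd68, -0.69, Lgals3, -0.55, and Clec7a, -0.54, where the median of all genes shifted by -0.52) and 2 in induced Treg against activated T (Cd68, 0.47, and Gpnmb, 0.50, with a median shift of 0.45). The 2 calls in induced Treg against activated T came with 7389 upward calls among all genes and 0 downward. The main setting had 5 upward and 1 downward there. With array medians set equal, 1 was called in natural Treg against natural Foxp3-delta (Ctss, -0.68), 2 in activated T against conventional T (Ctsd, 0.75, and Ctss, 0.59), 1 in activated natural Treg against natural Treg (Ctsd, 0.58) and 1 in induced Treg with IL-2 against induced Treg (Ctss, -0.70), with median shifts of -0.13, 0.17, 0.09 and -0.14. Over all genes, these medians split the calls into 3734 higher and 220 lower in activated T against conventional T (411 and 411 in the main setting), 2254 and 521 in activated natural Treg against natural Treg (1052 and 975; 27 and 7107 as deposited), 40 and 544 in the induced Treg IL-2 comparison (123 and 139) and 65 and 1452 in natural Treg against natural Foxp3-delta (4 and 2). Some of these calls had the opposite sign in the main setting. They were Lgals3 in activated natural Treg against natural Treg (main 0.09), Cd68 in induced Treg against activated T (main -0.02) and Ctss in activated T against conventional T (main -0.05). The other member calls named for these 2 settings kept their sign. The Lpl difference in activated T against conventional T, which was not called, reversed to -0.22 as deposited (adjusted p = 0.457). The causes were not tested. With the number in the sample title as a replicate block, 0 members were called in each comparison, as without it, and over all genes the block moved the calls in natural Treg against natural Foxp3-delta from 6 to 488, in induced Treg with IL-2 against induced Treg from 262 to 77 and in induced Treg against activated T from 6 to 1. With the highest bacterial control as background 5 member probe sets exceeded it on all 31 arrays, against 7 with the 95th percentile.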
